A study of Mus musculus with 9 samples.

Results

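The comparison described here set SR-B1 KO embryos with an open neural tube (KO-NTD) against SR-B1 KO embryos of normal appearance (KO-N), gene by gene across the genome and in both directions. SR-B1, the product of *Scarb1*, is a lipoprotein receptor, and both groups were homozygous for its null allele, so that they differed in phenotype and not in the labelled genotype. The embryos had a mixed C57Bl/6J x 129S2 background, came from intercrosses of heterozygous parents and were collected at E9.5. Each group had 3 samples, each made from 3 whole embryos pooled together and given as female in the labels, and the series also holds 3 WT samples. Poly-A RNA was sequenced with strand information, and the deposited table of all genes gives 1 FPKM value per group (fragments for each kilobase of a transcript, relative to all mapped fragments) with a lower and an upper confidence bound. Of the 24357 genes in that table, 13569 had an interpretable name, occurred once and averaged 0.5 FPKM or more across both KO groups, and these are the genes described.

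Because the 3 samples of a group were combined into 1 value before deposit, the spread between pools cannot be seen, and no test between samples was possible. The files give FPKM without read counts, so no interval from counts is given, and read totals of the samples were not used here. The change of each gene is given as log2((KO-NTD + 0.1)/(KO-N + 0.1)), called the log2 fold change below, with a 95% interval computed from the confidence bounds. The interval covers the error that Cufflinks assigned to each value. A gene was called higher or lower when it differed by at least 1.5-fold and its interval excluded 0.

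The deleted gene and the sex-linked genes were examined first. *Scarb1* was at 3.12 FPKM in KO-NTD embryos (bounds 2.36 to 3.89) against 3.34 in KO-N embryos (bounds 2.52 to 4.16), with a log2 fold change of -0.09 (95% interval -0.57 to 0.38). A further column of the same table, headed Control and of unstated composition, has 12.4 FPKM, and whether the remaining reads of the KO groups came from parts of the gene outside the deletion was not tested. *Xist*, the RNA of X inactivation, was at 83.7 FPKM in KO-NTD against 73.8 in KO-N embryos. The Y-linked genes *Ddx3y* (3.02 and 3.17 FPKM), *Eif2s3y* (5.12 and 5.69), *Uty* (1.77 and 1.75) and *Kdm5d* (1.61 and 1.58) were above 0 in both groups, although the labels give female embryos. Their X-linked counterparts were at 276 and 261 FPKM (*Ddx3x*), 223 and 222 (*Eif2s3x*), 16.1 and 15.9 (*Kdm6a*) and 29.1 and 30.0 (*Kdm5c*). Where the Y-linked reads came from was not tested. None of the 9 sex-linked genes examined was called, and the 4 Y-linked log2 fold changes lay between -0.15 and 0.02.

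In the mouse the cranial neural folds rise, bend and fuse before this stage, and embryos in which they stay apart develop exencephaly. By E9.5 the closed tube is patterned along its axes, the first neurons leave the cell cycle under proneural bHLH factors, and new trunk tissue is still being added from progenitors of the tail bud. The embryo is fed at this time through the visceral yolk sac, whose endoderm takes up maternal proteins by endocytosis and secretes lipoproteins and plasma proteins much as the later liver does, while the yolk sac also supplies the primitive red cells.

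Most genes had nearly the same value in both groups. The median log2 fold change was -0.02, the middle 50% of genes lay between -0.11 and 0.06, and 96.3% differed by less than 1.5-fold. Slightly more genes lay below 0 (7906) than above it (5663). In all, 250 genes were called, 1.84% of those measured. They split almost evenly into 124 called higher in KO-NTD (0.914%) and 126 called lower (0.929%). The directions differed in the size of the changes. At 2-fold or more there were 59 called higher and 28 called lower genes, at 3-fold or more 30 and 3, and at 8-fold or more 6 and 0. The median absolute log2 fold change was 0.96 for the genes called higher and 0.80 for those called lower.

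The called genes were expressed at low levels. Their median of the mean FPKM was 1.90 for those called higher and 1.88 for those called lower, against 10.3 over all genes measured. Of genes with a mean between 0.5 and 1 FPKM, 2.91% were called higher and 2.44% lower, and of genes between 20 and 100 FPKM 0.31% and 0.26%. The intervals were wide compared with the differences. The median standard error was 0.19 on the log2 scale, and 505 of the 13436 genes with an interval, 3.76%, had one that excluded 0, whatever the fold. This is fewer than a 95% interval with exact errors would leave out by itself, so the counts of called genes describe these values and do not show that so many genes differ.

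**Figure D1:**
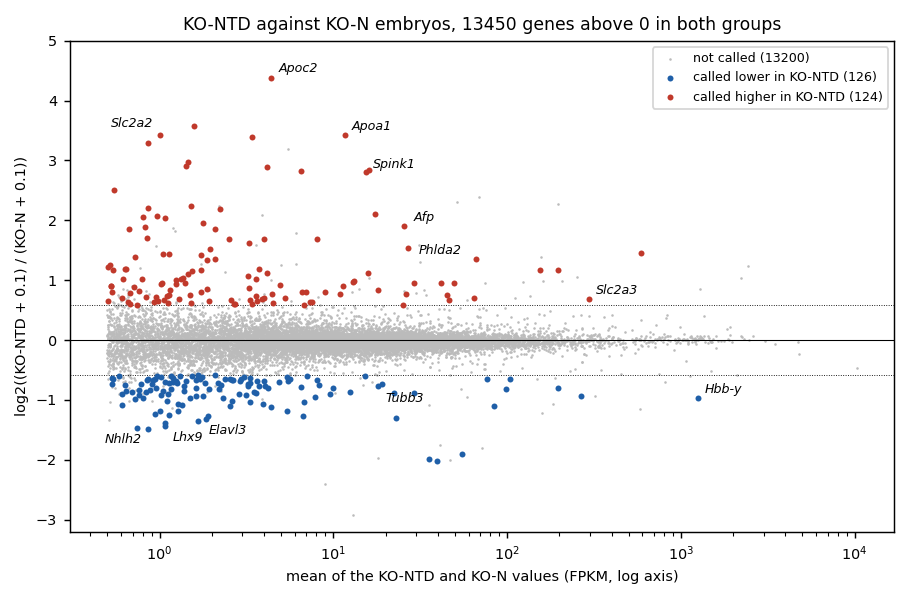
Log2 fold change from KO-N to KO-NTD embryos (vertical axis) against the mean of both FPKM values (horizontal log axis) for the 13450 genes above 0 in both groups. Red points are the 124 genes called higher and blue points the 126 called lower, and dotted lines mark 1.5-fold. The red points reach further from 0 than the blue ones, with 30 red and 3 blue points at 3-fold or more.

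Genes of small RNAs held the most extreme values and are given as a group. Of 119 genes listed at 0 in 1 group, 118 were predicted or small RNA genes, and 100 were miRNA precursors, which are shorter than most fragments that a poly-A library keeps. Without these 119 genes the root mean square log2 fold change fell from 0.77 to 0.26. Of the called genes, 17 higher and 16 lower ones were predicted or small RNA genes, and the only gene lowered 4-fold or more was *Snord88c*, a snoRNA gene inside a longer transcript (15.5 against 63.1 FPKM).

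The largest increases in KO-NTD embryos were those of proteins that the yolk sac endoderm secretes. Of 20 listed genes, 16 were measured at 0.5 FPKM or more. Of these 15 were called higher, 0 were called lower, and all 16 lay above 0, with a median log2 fold change of 2.30. *Apoc2*, whose product activates lipoprotein lipase, was at 8.45 FPKM in KO-NTD (bounds 5.79 to 11.1) against 0.310 in KO-N embryos (bounds 0 to 0.636). Its log2 fold change of 4.38 (95% interval 3.18 to 5.59) was the largest of all called genes. *Apoa4*, another apolipoprotein of triglyceride-rich particles and HDL, was at 3.01 against 0.160 FPKM (3.58, 2.94 to 4.22). *Apoa1*, the main protein of HDL, was at 21.4 against 1.91 FPKM (3.42, 2.89 to 3.95). *Apob*, the structural protein of larger lipoproteins, was at 7.36 against 0.904 FPKM (2.89, 2.51 to 3.28). With a pseudocount of 1 FPKM the log2 fold change of *Apoc2* was 2.85 and that of *Apoa4* 1.79. For each of these 4 genes the lower bound in KO-NTD embryos lay above the upper bound in KO-N embryos.

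Carrier proteins of the plasma were higher too. *Ttr*, which carries thyroxine and binds the retinol carrier, was at 28.1 FPKM in KO-NTD against 3.85 in KO-N embryos (log2 fold change 2.84, 95% interval 2.35 to 3.33). *Rbp4*, the retinol carrier itself, was at 28.1 against 6.47 FPKM (2.10, 1.64 to 2.56). *Afp*, the fetal relative of albumin, was at 40.6 against 10.8 FPKM (1.91, 1.54 to 2.28), the largest absolute difference of the list. *Apom*, which carries sphingosine-1-phosphate on HDL, rose by 2.82 and *Spp2*, a secreted phosphoprotein, by 2.90 on the log2 scale. The 3 fibrinogen chains lie side by side on chromosome 3 and were all called higher, *Fga* by 2.50, *Fgg* by 1.89 and *Fgb* by 1.16. *Apoa2* was the only one of the 16 not called (5.41 against 1.74 FPKM, 1.58), because its interval was wide (-0.52 to 3.68). Albumin itself stayed below the minimum in both groups (*Alb*, 0.116 and 0.197 FPKM), as did 3 further listed genes.

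Receptors and transporters of the same epithelium made up the next group. Of 16 measured genes 10 were called higher and 0 lower, with a median log2 fold change of 1.22. Over the 4 of them that averaged 5 FPKM or more it was 0.47. *Slc2a2*, a glucose transporter of absorptive epithelia, was at 1.94 against 0.0887 FPKM (3.43, 95% interval 2.69 to 4.17). *Cubn* (6.26 against 0.509 FPKM, 3.39) and *Amn* (2.65 against 0.249 FPKM, 2.98) encode both chains of the endocytic receptor for vitamin B12 bound to intrinsic factor and for HDL protein. *Slc13a4*, a sulfate transporter gene, was at 3.72 against 0.737 FPKM (2.19), and *Slc39a5*, a zinc transporter gene, at 1.62 against 0.310 FPKM (2.07). *Cldn2*, a claudin that forms cation pores in tight junctions, was at 1.79 against 0.359 FPKM (2.04). The other called members were *Folr1*, *Tmprss2*, *Slc22a18* and the iron exporter gene *Slc40a1*, between 0.61 and 1.33. The other 6 genes were not called. *Vil1*, a gene of the brush border, had the largest value among them, at 1.48 against 0.433 FPKM (1.57, -1.68 to 4.82). *Lrp2*, encoding the large partner receptor of cubilin, was at 8.90 against 6.12 FPKM (0.53), *Dab2* at 31.4 against 21.8 (0.53) and *Slc39a8* at 14.9 against 15.5 (-0.06), the only member below 0.

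Of 16 transcription factor genes of the endoderm 3 were called higher and 0 lower, and the median was 0.23. *Hnf4a*, a nuclear receptor that regulates many genes of liver and yolk sac endoderm, was at 1.35 FPKM in KO-NTD against 0.346 in KO-N embryos (1.70, 95% interval 1.17 to 2.23). *Cdx2*, which is also a gene of the hindgut and tail bud, was at 14.9 against 7.93 FPKM (0.90). The factors shared with the endoderm inside the embryo or with the heart had smaller differences, *Foxa2* at 5.97 against 5.83 FPKM (0.03), *Sox17* at 3.28 against 2.99 (0.13) and *Gata4* with a log2 fold change of 0.25.

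**Figure D2:**
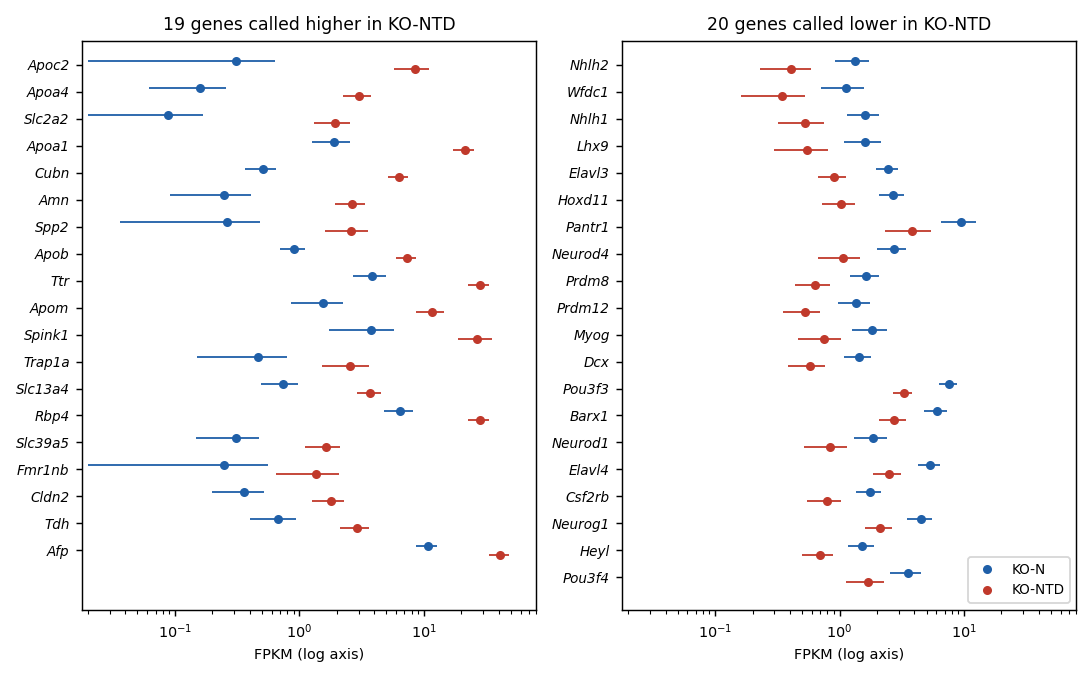
FPKM (log axis) of 19 genes called higher (left) and 20 called lower (right), taken from those with the largest log2 fold changes and at least 1 FPKM in 1 group. Points are the deposited group values, lines run from the lower to the upper confidence bound and are drawn from 0.02 FPKM where a bound is lower. The bounds of both groups are apart for every gene in either panel, and the differences on the right are smaller.

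The promoters of 4 of these genes are shown because the list moved together and a few short binding motifs of endoderm and general transcription factors could be looked up in them. Each line gives the 250 bases before the transcription start from RefSeq (GRCm38.p6, the same build as mm10), 5′ to 3′ on the strand of the gene, and capitals mark the motif letters searched on both strands. The intervals are chr5:90490464-90490713, strand + for *Afp*, chr12:7977427-7977676, strand + for *Apob*, chr9:46240594-46240843, strand + for *Apoa4* and chr3:28697653-28697902, strand + for *Slc2a2*.
Afp: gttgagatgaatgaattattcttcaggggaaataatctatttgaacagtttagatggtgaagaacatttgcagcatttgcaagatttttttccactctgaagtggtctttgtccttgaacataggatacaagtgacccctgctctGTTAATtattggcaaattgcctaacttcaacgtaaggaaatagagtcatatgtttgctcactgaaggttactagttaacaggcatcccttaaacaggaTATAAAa
Apob: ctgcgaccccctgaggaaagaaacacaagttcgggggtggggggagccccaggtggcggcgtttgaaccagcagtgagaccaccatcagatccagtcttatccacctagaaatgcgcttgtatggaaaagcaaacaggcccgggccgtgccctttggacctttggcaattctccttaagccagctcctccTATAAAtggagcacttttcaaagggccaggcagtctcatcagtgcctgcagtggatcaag
Apoa4: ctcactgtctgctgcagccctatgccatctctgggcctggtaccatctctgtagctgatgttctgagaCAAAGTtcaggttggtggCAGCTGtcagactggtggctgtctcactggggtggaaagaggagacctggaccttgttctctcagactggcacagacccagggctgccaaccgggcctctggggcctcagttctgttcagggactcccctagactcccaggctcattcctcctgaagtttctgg
Slc2a2: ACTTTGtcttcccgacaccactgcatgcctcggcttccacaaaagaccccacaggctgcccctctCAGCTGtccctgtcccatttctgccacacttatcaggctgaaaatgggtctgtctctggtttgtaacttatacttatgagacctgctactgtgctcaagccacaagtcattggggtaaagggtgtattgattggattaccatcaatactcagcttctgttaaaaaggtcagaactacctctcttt
In the *Afp* promoter the capitals are GTTAAT and the TATA letters TATAAA. The *Apob* promoter holds TATAAA, and those of *Apoa4* and *Slc2a2* hold CAAAGT, a unit of the direct repeat bound by HNF4 (read as ACTTTG on the other strand), and the E-box CAGCTG. These 4 were picked because they hold such letters, and the promoters of *Apoa1* and *Cubn*, also looked up, hold none of them.

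RefSeq promoters were matched for 10080 of the 13569 genes, 86 of the 124 called higher and 85 of the 126 called lower. GTTAAT was found in 11.6% of the matched promoters of genes called higher, 3.53% of those called lower and 4.78% of all. The GATA motif AGATAA was found in 15.1%, 10.6% and 7.09% and TATAAA in 19.8%, 16.5% and 7.77% in the same order. CAAAGT was found in 15 of 86, 9 of 85 and 1206 of 10080 promoters. The POU octamer ATGCAAAT was found in 5 of 86, 1 of 85 and 149 of 10080. These shares are descriptions of letters, and the differences between them were not tested.

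The rise of yolk sac endoderm genes was set beside markers of the other tissues around the embryo. Summed over the measured members, the secreted proteins came to 224 FPKM in KO-NTD against 60.2 in KO-N embryos, so that they were present in both groups. The parietal endoderm and basement membrane list had 0 of 14 genes called and a median of 0.02 (687.6 against 656 FPKM in sum). *Cited1* had the largest value of that list (0.45, 95% interval 0.05 to 0.84). Of 9 measured trophoblast genes 1 was called higher, *Plac1* (8.94 against 5.07 FPKM, 0.81). Above 0 lay 7 of the 9, with a median of 0.35 (274 against 192 FPKM in sum). The giant cell hormone gene *Prl3d1* was at 1.01 against 1.56 FPKM (-0.58, 95% interval -1.58 to 0.41). The spongiotrophoblast marker *Tpbpa* was listed at 0 in both groups. Of 15 genes of the allantois and extraembryonic mesoderm 2 were called higher, *Tbx4* (6.45 against 3.38 FPKM, 0.91) and again *Plac1*. Above 0 lay 12 of these 15, with a median of 0.12. The visceral and parietal yolk sacs were dissected from the embryos in the study, and the part of attached yolk sac tissue in these values was not tested. In whole embryos a smaller number of cells of a type and less RNA per cell cannot be told apart.

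Genes of young neurons formed the main group with lower values in KO-NTD embryos. Of 15 measured proneural and neuronal differentiation factors 10 were called lower and 0 higher, 14 lay below 0, and the median log2 fold change was -0.76. *Nhlh2*, a bHLH factor of newborn neurons, was at 0.407 FPKM in KO-NTD (bounds 0.228 to 0.587) against 1.32 in KO-N embryos (bounds 0.919 to 1.72), a log2 fold change of -1.48 (95% interval -2.12 to -0.84). With a pseudocount of 1 FPKM it was -0.72. Its relative *Nhlh1* was at 0.531 against 1.61 FPKM (-1.44), and *Neurod4*, which acts after the neurogenins, at 1.07 against 2.73 FPKM (-1.27). *Neurod1* was at 0.833 against 1.87 FPKM (-1.08). The upstream proneural genes fell as well, *Neurog1* from 4.48 to 2.13 FPKM (-1.04) and *Neurog2* from 5.10 to 2.96 (-0.76). The 5 members not called included *Ebf2* (-0.56), *Ebf3* (-0.56) and *Cbfa2t3* (0.09), the only one above 0.

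Structural and excitability genes of neurons pointed the same way. Of 20 measured genes 7 were called lower and 0 higher, and all 20 lay below 0, with a median of -0.48. *Elavl3*, a neuronal RNA-binding protein gene, was at 0.896 against 2.44 FPKM (-1.35, 95% interval -1.77 to -0.93), and *Elavl4* at 2.49 against 5.35 (-1.07). *Dcx*, whose product binds microtubules in migrating neurons, was at 0.576 against 1.43 FPKM (-1.18). *Celf3*, a regulator of neuronal splicing, was at 0.957 against 1.81 FPKM (-0.86), and *Tubb3*, the neuronal tubulin, was the most abundant called member, at 13.4 against 22.9 FPKM (-0.77). The neurofilament gene *Nefm* (-0.66) and the synaptic vesicle gene *Syp* (0.905 against 1.43 FPKM, -0.60) were the other called members. The growth cone gene *Gap43* was at 13.6 against 14.3 FPKM (-0.07) and *Gng3* at 1.26 against 1.28 (-0.02), and neither was called. Over the 25 measured axon guidance and adhesion genes the median was -0.01, and 2 were called lower, *Epha3* (-0.82) and *Dcc* (-0.66).

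The promoters of 3 genes of young neurons are shown because these genes had some of the largest decreases and E-boxes are the letters that bHLH factors bind. They are the 250 bases before the start, from the same RefSeq build and written as before. The intervals are chr1:172057597-172057846, strand - for *Nhlh1*, chr3:102009895-102010144, strand + for *Nhlh2* and chr9:22052024-22052273, strand - for *Elavl3*.
Nhlh1: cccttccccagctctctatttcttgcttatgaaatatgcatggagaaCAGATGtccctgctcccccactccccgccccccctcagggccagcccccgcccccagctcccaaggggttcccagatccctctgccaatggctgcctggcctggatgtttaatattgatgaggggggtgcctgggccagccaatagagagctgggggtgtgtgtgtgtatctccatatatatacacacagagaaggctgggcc
Nhlh2: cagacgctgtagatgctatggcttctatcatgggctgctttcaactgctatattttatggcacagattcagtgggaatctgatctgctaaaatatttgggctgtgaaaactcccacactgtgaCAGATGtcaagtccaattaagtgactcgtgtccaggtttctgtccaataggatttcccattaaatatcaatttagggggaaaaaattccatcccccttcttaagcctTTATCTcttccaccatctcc
Elavl3: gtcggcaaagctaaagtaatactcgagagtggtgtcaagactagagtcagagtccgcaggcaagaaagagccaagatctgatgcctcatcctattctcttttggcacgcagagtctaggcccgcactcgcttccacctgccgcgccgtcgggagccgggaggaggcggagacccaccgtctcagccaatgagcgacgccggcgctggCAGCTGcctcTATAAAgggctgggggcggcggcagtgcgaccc
The capitals are the E-box CAGATG in *Nhlh1*, CAGATG again with the GATA letters on the other strand in *Nhlh2*, and the E-box CAGCTG and TATAAA in *Elavl3*. The 3 were picked because they hold E-boxes. Both RefSeq promoters of *Dcx* hold TATAAA and GTTAAT and no E-box, and the promoters of *Neurod1*, *Neurod4* and *Lhx9*, also looked up, hold none of the letters searched. CAGATG was found in 9.41% of the matched promoters of genes called lower and in 11.6% of all, and CAGCTG in 8 of 85 and 1416 of 10080 promoters. Among the promoters of genes called higher CAGATG was found in 8.14% and CAGCTG in 16 of 86. These differences were not tested.

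By list median, neural progenitor genes were lower to a smaller degree. Of 19 measured genes 8 were called lower, 0 higher, and the median was -0.39. Over the 13 of them that averaged 5 FPKM or more it stayed at -0.39. The proneural list, with few genes left at that level, came close to the same median, so the contrast rests on low genes. *Pou3f3* was at 3.27 FPKM in KO-NTD against 7.53 in KO-N embryos (-1.18, 95% interval -1.52 to -0.84). *Fabp7*, a fatty acid binding protein gene of radial glia, was at 6.62 against 12.5 FPKM (-0.91), *Olig2* at 2.46 against 4.58 (-0.87) and *Zic1* at 8.82 against 16.1 (-0.86). The general progenitor factors had smaller values and were not called, *Sox1* at 12.3 against 15.8 FPKM (-0.37) and *Sox2* at 41.5 against 55.9 (-0.43). *Pou3f1* was at 5.07 against 4.75 FPKM (0.09). *Pou3f4*, which no list held, was at 1.69 against 3.52 FPKM (-1.02) and was called lower with *Pou3f2* (-0.75) and *Pou3f3*.

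By region, dorsal genes held more calls than ventral ones. Of 17 roof plate and dorsal genes 6 were called lower, among them *Neurog1*, the dorsal interneuron factor gene *Olig3* (-0.74) and the Wnt-enhancing ligand gene *Rspo1* (2.49 against 4.16 FPKM, -0.72). Of 15 floor plate and ventral genes 1 was called lower, *Olig2*, and *Shh*, the ventral signal itself, was at 10.2 against 10.3 FPKM (-0.00). The median was -0.27 for the dorsal list and -0.33 for the ventral one. Below 0 lay 13 of the 17 dorsal and 12 of the 15 ventral genes. Whether dorsal and ventral genes differ was not tested. None of 19 forebrain genes was called, although 17 of them lay below 0 with a median of -0.28. *Hesx1*, a gene of the anterior neural plate, had the largest value (0.77, 95% interval -0.07 to 1.61), followed by *Dlx1* (-0.69). Among 18 midbrain and hindbrain genes *Egr2*, which marks rhombomeres 3 and 5, was called higher (1.87 against 0.919 FPKM, 0.95), 1 gene was called lower, and the median was -0.03. Among 13 genes of motor, sensory and interneuron identity 2 were called lower, *Lhx9* among them (0.553 against 1.61 FPKM, -1.39), and 2 higher, *Evx1* (0.73) and *Lhx1* (1.88 against 1.18 FPKM, 0.63). *Evx1* and *Lhx1* are also expressed in the tail bud and the nephric cord. Of 13 lens and eye genes 3 were called lower, *Foxe3* (-0.97), *Six6* (-0.72) and *Aldh1a3* (-0.70).

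Neural crest and placode genes were not called. The 15 neural crest genes had a median of -0.12, with 13 below 0, and the 14 placode and otic genes one of -0.09, with 9 below 0. The largest values were those of *Tfap2b* (4.83 against 7.27 FPKM, -0.58, 95% interval -0.95 to -0.21) in the first list and *Eya4* (-0.47, -0.96 to 0.03) in the second. Taking the 12 lists of the nervous system and its borders as 1 set, 35 of 178 measured genes were called lower and 3 higher, and 135 lay below 0.

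Mesoderm of the trunk and face also held more lower than higher calls. Of 14 somite and sclerotome genes 3 were called lower, the sclerotome factor genes *Nkx3-2* (0.722 against 1.37 FPKM, -0.84), *Pax1* (4.77 against 8.29, -0.78) and *Uncx* (2.35 against 4.07, -0.76). In all 12 of the 14 lay below 0, and the median was -0.26. The 2 genes above 0 were *Foxc2*, with a log2 fold change of 0.04, and *Aldh1a2*, the retinoic acid enzyme of somites, at 29.1 against 26.4 FPKM (0.14). In the myotome list *Myog*, which drives muscle differentiation, was called lower (0.746 against 1.82 FPKM, -1.19), while the earlier factor *Myf5* was at 1.19 against 1.42 FPKM (-0.23, 95% interval -0.89 to 0.42). Of 17 pharyngeal arch and craniofacial genes 2 were called lower, *Barx1* (2.73 against 6.03 FPKM, -1.11), a homeobox gene of the jaw and stomach mesenchyme, and *Alx4* (-0.60). The limb bud list had 5 genes called lower and 1 higher of 21. The lower genes were *Lhx9*, *Hoxd11*, *Hoxd10*, *Hoxd13* and *Alx4*, and the higher one was *Tbx4*, which is also a gene of the allantois. The limb outgrowth genes *Fgf10* (5.03 against 4.66 FPKM, 0.11) and *Tbx5* (4.91 against 5.01, -0.03) were not called.

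Hox genes, which give axial position, showed calls only at the 5′ end of 2 clusters. Of 35 measured Hox genes 4 were called lower and 0 higher. None of the 23 genes of paralogs 1 to 8 was called, with a median of -0.06, and 4 of the 12 genes of paralogs 9 to 13 were, with a median of -0.36. *Hoxd11* was at 1.02 FPKM in KO-NTD against 2.68 in KO-N embryos (-1.31, 95% interval -1.81 to -0.82). Its neighbours *Hoxd10* (-0.90, -1.44 to -0.36) and *Hoxd13* (1.36 against 2.29, -0.71) were also called lower. *Hoxc10* was at 5.30 against 10.3 FPKM (-0.95). The posterior *Hoxa* genes were not called, with *Hoxa10* at -0.30 (-0.79 to 0.19), *Hoxa11* at -0.42 (-1.08 to 0.24) and *Hoxa13* at 0.42 (-0.31 to 1.15). The intervals of *Hoxa10* and *Hoxa11* overlapped those of *Hoxd10* and *Hoxd13*, and whether the clusters differ was not tested. *Hoxb9*, the most abundant Hox gene, was at 29.9 against 33.7 FPKM (-0.17). *Hoxd1* (0.58) and *Hoxc8* (0.55) had the highest values and were just short of 1.5-fold.

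**Figure D3:**
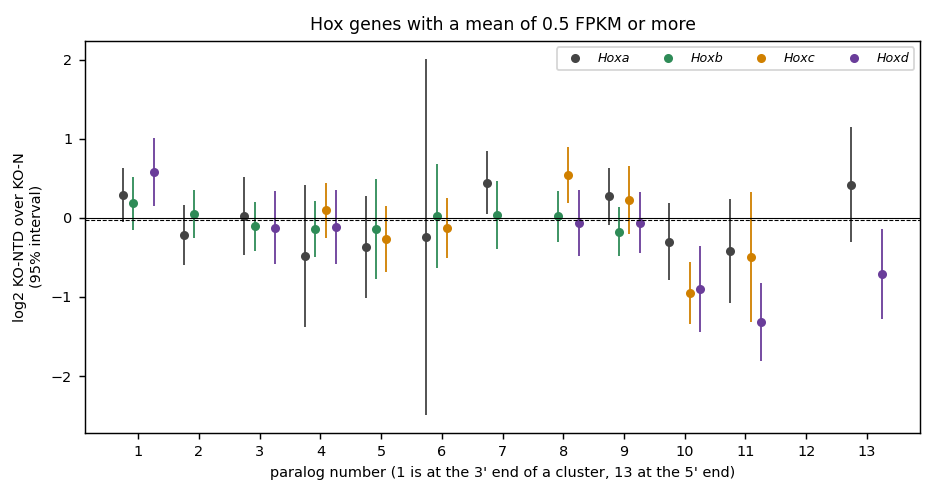
Log2 fold change from KO-N to KO-NTD embryos (points) with 95% intervals (lines) for the 35 measured Hox genes, by paralog number and coloured by cluster. The dashed line is the median of all genes. The intervals of *Hoxc10*, *Hoxd10*, *Hoxd11* and *Hoxd13* lie below 0, and those of the 5′ *Hoxa* genes include it.

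Genes of the tail bud and its neuromesodermal progenitors, which lay down the posterior axis, had calls in the higher direction. Of 20 measured genes 5 were called higher and 0 lower, 16 lay above 0, and the median log2 fold change was 0.31. *Cdx4* was at 17.6 FPKM in KO-NTD (bounds 14.4 to 20.8) against 8.80 in KO-N embryos (bounds 6.89 to 10.7), a log2 fold change of 0.99 (95% interval 0.60 to 1.39). *Cdx2* (0.90), *Evx1* (4.49 against 2.66 FPKM, 0.73), *Nkx1-2* (4.81 against 2.95, 0.69) and the presomitic gene *Tbx6* (3.26 against 2.11, 0.61) were the other called members. *T*, the Brachyury gene of the streak and notochord, was at 10.7 against 7.41 FPKM (0.52, 95% interval 0.14 to 0.91) and stayed under 1.5-fold, and *Wnt3a* was at 2.87 against 3.07 FPKM (-0.10). *Evx1* overlaps a predicted RNA gene that was also called higher, and how reads were split between them is not known. Somite numbers of the embryos are not known here.

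The signalling pathway lists held between 0 and 2 calls each. Among 19 Notch pathway genes the target genes *Heyl* (0.698 against 1.52 FPKM, -1.03) and *Hes5* (14.2 against 23.7, -0.73) were called lower, while *Hes1* was at 43.0 against 43.3 FPKM (-0.01) and *Notch1* at 9.84 against 11.7 (-0.25). No gene of 20 Wnt ligands and targets was called. *Wnt7b* had the largest value (-0.48, 95% interval -0.86 to -0.11), and the general Wnt target *Axin2* was at 16.9 against 16.9 FPKM (-0.00). Of 14 hedgehog pathway genes 1 was called higher, *Ihh*, a ligand gene of gut and yolk sac endoderm (1.10 against 0.491 FPKM, 1.02), and the target *Gli1* was at 13.2 against 13.1 FPKM (0.01). *Fgf3* was the only call among 18 Fgf genes (3.31 against 2.15 FPKM, 0.60, 95% interval 0.05 to 1.16), and *Gdf7*, a roof plate ligand gene, the only one among 21 Bmp and Tgf-beta genes (-0.61). In the retinoic acid list *Rbp4* was higher and *Aldh1a3* lower, and 14 of 16 genes were not called. The R-spondin genes, named after their values were seen, had 3 of 4 members called lower, *Rspo2* (1.09 against 2.17 FPKM, -0.93), *Rspo4* (-0.83) and *Rspo1*, while *Rspo3* was at 0.06.

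With small RNA and predicted genes left out, the largest absolute difference belonged to a globin. *Hbb-y*, an embryonic beta-like globin of primitive red cells, was at 843 FPKM in KO-NTD (bounds 702 to 983) against 1655 in KO-N embryos (bounds 1371 to 1939), a difference of -812 FPKM and a log2 fold change of -0.97 (95% interval -1.31 to -0.64). *Hba-x* (1231 against 1762 FPKM, -0.52) and *Hbb-bh1* (940.0 against 1203, -0.36) followed by absolute difference, with intervals below 0 but under 1.5-fold. Of 20 measured erythroid genes 3 were called lower, *Hbb-y*, the membrane channel gene *Rhag* (1.18 against 2.36 FPKM, -0.94) and *Alas2*, the erythroid enzyme that starts heme synthesis (12.1 against 18.3, -0.59). In all 19 of the 20 lay below 0, and the median was -0.36. The exception was *Tal1* (6.35 against 5.27 FPKM, 0.27), which endothelial precursors also express. All 12 heme synthesis genes lay below 0, with a median of -0.13 and *Alas2* as the only call. The 5 measured platelet genes had no call, with *Pf4* at 1.30 against 2.47 FPKM (-0.87, -1.86 to 0.11). Of 14 macrophage and leukocyte genes 2 reached 0.5 FPKM, and defining markers such as *Ptprc* (0.0168 and 0.0423 FPKM) and *Csf1r* (0.248 and 0.211 FPKM) stayed below the minimum.

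Most other genes with large absolute differences, small RNA and predicted genes again left out, had small relative ones. *H19*, an imprinted noncoding RNA, differed by 154 FPKM (1063 against 909.7, 0.23), *Ptma* by -153 FPKM (-0.14), *Rplp1* by 112 FPKM (0.06), *Npm1* by 108 FPKM (0.08) and *Rpl41* by 91.1 FPKM (0.06). Their intervals included 0. Glucose transporters had larger relative differences. *Slc2a3*, a high-affinity transporter gene known from neurons and trophoblast, was at 364 FPKM in KO-NTD against 227 in KO-N embryos (0.68, 95% interval 0.34 to 1.02) and was called higher. *Slc2a1* was at 408 against 313 FPKM (0.38, 0.06 to 0.71), above 0 but under 1.5-fold. The remaining 26 of 28 genes of glycolysis and the hypoxia response lay between -0.21 and 0.33, among them *Ldha* (0.04) and *Vegfa* (0.01). Over all 13569 genes, 8 of the 10 largest absolute differences belonged to snoRNA, related guide RNA and miRNA genes (*Scarna17*, *Snord52*, *Snord12*, *Snord70*, *Mir6236*, *Mir703*, *Snord100* and *Snord65*). Of these 8 only *Snord65* was called (865 against 315 FPKM, 1.45).

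Among vessels, heart and epithelia the number of calls differed by list. Of 19 endothelial genes 2 were called higher, *Etv2*, an early factor of blood and vessel precursors (4.85 against 2.34 FPKM, 1.02, 95% interval 0.47 to 1.58), and *Lyve1* (0.885 against 0.474, 0.78). The general endothelial markers *Pecam1* (9.79 against 10.2 FPKM, -0.06) and *Cdh5* (26.2 against 24.6, 0.09) were not called. No gene of 20 cardiomyocyte genes was called, with *Myh6* at 32.7 against 30.2 FPKM (0.11) and *Pln* as the largest value (-0.85, -1.83 to 0.12). None of 21 surface ectoderm and epithelial genes was called, although 18 lay above 0 with a median of 0.27. *Krt8* was at 115 against 79.2 FPKM (0.54, 0.22 to 0.85) and *Cldn6* at 63.6 against 43.8 (0.54, 0.21 to 0.87), both also genes of extraembryonic epithelia. In the gut and pharyngeal endoderm list 4 of 17 genes were called higher and 2 lower. *Spink1*, a trypsin inhibitor gene, was at 27.0 against 3.78 FPKM (2.81, 1.95 to 3.66), the gut hormone gene *Pyy* at 3.03 against 1.13 (1.35), *Sfrp5* at 0.81 and *Nepn* at 0.80, whereas *Barx1* and *Onecut1* (-0.67) were lower. Of 12 genes of the nephric mesoderm 2 were called higher, *Lhx1* among them. The 11 genes of the epicardium and coelomic lining had no call, with *Lrrn4* as the largest value (0.58, 0.23 to 0.93).

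Metabolic, stress and housekeeping lists were near 0. Of all measured genes 1.84% were called, so lists of this size can hold 0 calls without standing apart from that share. No gene was called among 24 of cholesterol synthesis, although 22 lay below 0 with a median of -0.22. *Tm7sf2* had the largest value (4.96 against 7.27 FPKM, -0.54, -1.38 to 0.30). The 14 genes of fatty acid synthesis had a median of -0.09 with *Scd1* at -0.42. The 5 stress lists, for ATF4 targets, the unfolded protein response, heat shock, immediate early genes and antioxidant defence, held 86 measured genes with 0 calls and a range from -0.38 to 0.35. Within them the glutathione peroxidase gene *Gpx4* was at 121 against 127 FPKM (-0.07) and *Hmox1* at 10.1 against 9.68 (0.07). Of 22 p53 target genes 17 lay above 0 with a median of 0.11 and 1 was called higher, the death receptor gene *Eda2r* (6.57 against 3.98 FPKM, 0.71). *Ccng1* (0.50) and *Cdkn1a* (0.44) were under 1.5-fold. The 65 genes of mitosis, DNA replication and oxidative phosphorylation had 0 calls and lay between -0.13 and 0.21. The 25 collagen and laminin genes had 0 calls as well, with *Col9a1* as the lowest value (-0.40), and the 12 reference genes lay between -0.12 and 0.08.

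Of 34 genes that are required for neural tube closure in the mouse, 31 were not called and the median was -0.08. The 2 called higher, *Apob* (2.89) and *Folr1* (2.72 against 1.02 FPKM, 1.33), the folate receptor, are also genes of the yolk sac endoderm, and the 1 called lower, *Neurog2* (-0.76), is also a proneural gene. The list includes genes that the study chose on these samples. Planar polarity genes of the list were level, *Vangl2* at 21.6 against 23.0 FPKM (-0.09), *Celsr1* at -0.06, *Scrib* at -0.11 and *Ptk7* at 0.07. So were the surface ectoderm factors of closure, *Grhl2* (4.04 against 3.64 FPKM, 0.15) and *Grhl3* (0.30, -0.14 to 0.74). Among 23 imprinted genes *Phlda2*, which restrains placental growth, was at 40.1 against 13.8 FPKM (1.53, 95% interval 1.13 to 1.94) and its neighbour *Slc22a18* at 0.864 against 0.375 (1.02), and both were called higher. *Igf2* (0.13) and *Cdkn1c* (-0.05) were not. Among 11 iron handling genes *Trf*, the plasma iron carrier (6.16 against 1.83 FPKM, 1.70), and *Slc40a1* (0.61) were called higher, while *Tfrc*, the receptor of that carrier, was at 172 against 150.1 FPKM (0.20).

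**Figure D4:**
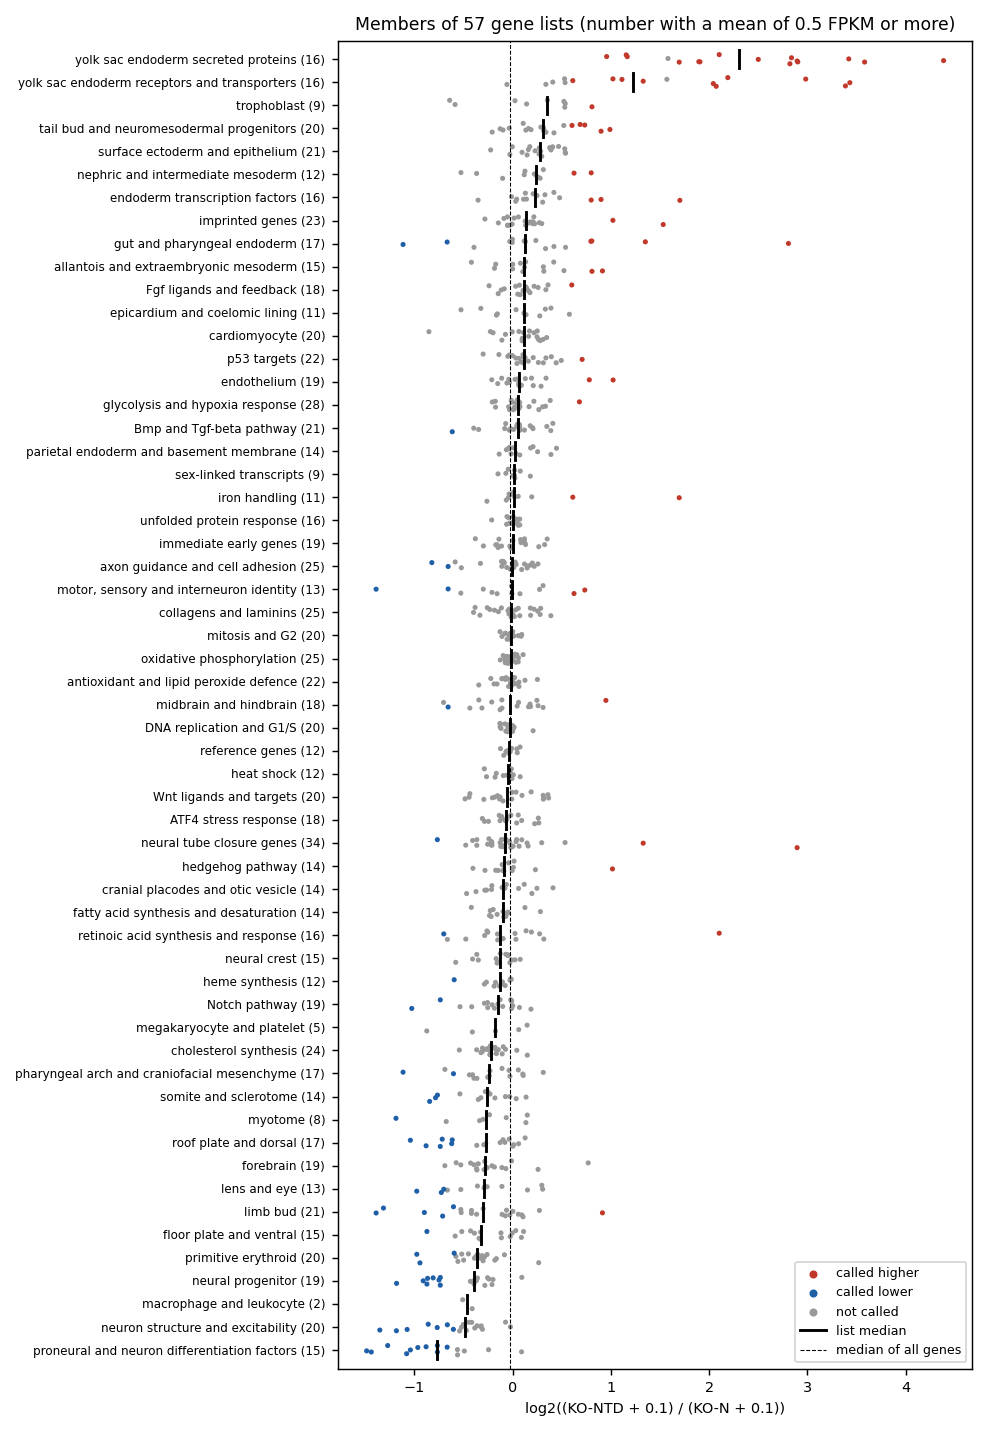
Log2 fold change from KO-N to KO-NTD embryos for the measured members of the 57 gene lists, ordered by list median (black bars), with the number of measured genes in brackets. Red and blue points are called genes and the dashed line is the median of all genes. The secreted proteins of the yolk sac endoderm stand highest with a median of 2.30 and the neuronal differentiation factors lowest with -0.76, whereas 23 lists hold no called gene.

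Called genes lay on every autosome and on the X chromosome. By share of measured genes the X chromosome had most called higher, 11 of 495 (2.22%, against 0.914% over all chromosomes), and 5 called lower (1.01%). Chromosome 7 had 15 called higher of 1027 (1.46%), and chromosome 11 had 2 called lower of 1097 (0.18%, against 0.929%). The 5 measured Y-linked genes had no call. The X-linked genes called higher included *Trap1a* (2.58 against 0.470 FPKM, 2.23), *Fmr1nb* (1.36 against 0.249, 2.06), *Cldn2* and *Cdx4*, and those called lower included *Dcx* and *Pou3f4*. The median log2 fold change of all X-linked genes was 0.01.

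**Figure D5:**
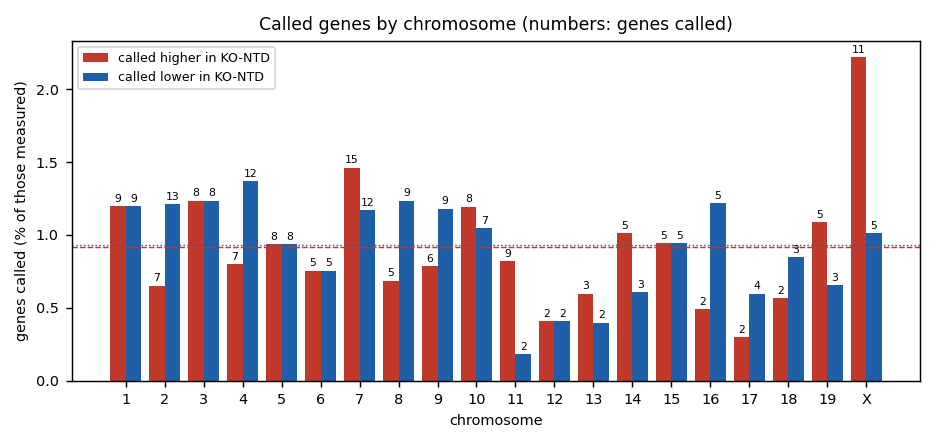
Share of measured genes called higher (red) and lower (blue) in KO-NTD embryos on each chromosome, with the number of genes above each bar. The red dashed and blue dotted lines are the shares over all genes, 0.914% and 0.929%. The X chromosome has the tallest red bar, made of 11 genes.

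Some called genes were direct neighbours. With predicted and small RNA genes left out, 3 runs of 3 consecutive measured genes were called in the same direction. The first was the fibrinogen cluster *Fgg*, *Fga* and *Fgb* on chromosome 3 (83007896 to 83049790 of mm10), called higher. The second was *Apoc2*, *Apoc1* and *Apoe* on chromosome 7 (19671579 to 19699188), where *Apoc1* was at 2.43 against 1.03 FPKM (1.17, 95% interval 0.05 to 2.28) and *Apoe* at 54.7 against 28.1 (0.96, 0.64 to 1.27). The third was *Hoxd13*, *Hoxd11* and *Hoxd10* on chromosome 2 (74668310 to 74695106), called lower. There were also 8 pairs. Called higher were *Apoa1* and *Apoa4*, *Phlda2* and *Slc22a18*, *Fev* and *Ihh*, *Ankrd1* and *Pcgf5*, and *Trap1a* and *Rnf128*. Called lower were *Zic1* and *Zic4*, *Rgs8* and *Rgs16*, and *Pou3f3* with the noncoding RNA *Pantr1* (3.86 against 9.45 FPKM, -1.27).

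Some gene families had members called in opposite directions. Among LIM homeobox genes *Lhx1* was higher and *Lhx9* lower. Among forkhead genes *Foxh1*, a partner of Smad proteins in Nodal signalling, was higher (5.63 against 3.25 FPKM, 0.77) and *Foxe3* lower, and among glutathione transferase genes *Gstt1* was higher (0.86) and *Gstm7* lower (-0.92). The same held for *Nkx1-2* (higher) and *Nkx3-2* (lower), for *Rnf128* (0.63) and *Rnf150* (-0.59) of the ring finger genes, and for miRNA and snoRNA genes. Of 221 solute carrier genes 9 were called higher (4.07%) and 0 lower, and of 10 apolipoprotein genes 7 were called higher. None of the 81 ribosomal protein genes and 44 *Nduf* genes of respiratory complex I was called, beside 1.84% of all measured genes.

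The called genes were also read against the other deposited columns. The make-up of the column headed Control is not stated. Control lay between KO-N and KO-NTD for 110 of the 124 genes called higher and 95 of the 126 called lower. Over all measured genes the share was 38.4%. Called genes were picked for a gap of at least 1.5-fold between both KO groups. A wide gap takes in other values more often than a narrow gap does. The larger share among called genes can thus follow from the calling rule, and nothing about Control is concluded from it. WT values exist for 90 of the genes called higher and 94 of those called lower. They come from tables of genes that the authors selected and that were scaled separately, so no fold is given. A share over all measured genes is not available beside the counts below, and the limit from wide gaps holds for them too. For the genes called higher the WT value lay between both KO groups in 78 of 90 and on the far side of KO-N in 8. *Apoa1*, for example, was at 1.91 FPKM in KO-N, 9.15 in WT and 21.4 in KO-NTD embryos, and *Afp* at 10.8, 21.7 and 40.6 FPKM. For the genes called lower the WT value lay between both groups in 48 of 94 and on the far side of KO-N in 46. *Elavl3* was at 0.896 FPKM in KO-NTD, 2.33 in WT and 2.44 in KO-N embryos. *Wfdc1*, a secreted protease inhibitor-like protein gene, was at 0.346, 1.76 and 1.14 FPKM and *Csf2rb*, a shared cytokine receptor chain gene, at 0.788, 3.49 and 1.77 in the same order, so that WT was highest for both.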

How the data were processed

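Poly-A RNA of pools of whole E9.5 embryos was sequenced with a strand-specific kit. The authors aligned the reads to mm10 with TopHat2 0.7 and estimated expression with Cufflinks 2.2.1, as named in the submitters' processing notes. Which annotation was used is not known here. The unit of the deposited values is FPKM, with 1 value and 2 confidence bounds per group. Columns of the authors' own comparisons (fold changes, test values, p-values and q-values) were not used.

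From the deposited FPKM, 27 rows whose names had turned into dates were dropped and a mean of at least 0.5 FPKM was required. Log2 fold changes used a pseudocount of 0.1 FPKM. Each bound was read as 2 standard deviations, and both errors were joined on the log scale into a 95% interval. Calls needed 1.5-fold and an interval that excluded 0. With 1 value per group no model across samples could be fitted and no p-value is given. Expression levels of different genes are compared only as FPKM. The calculation was tested on simulated data. Python 3.11.15 and pandas 2.3.3 were used.

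The genes named are the 20 called genes with the largest log2 fold changes in each direction that reached 1 FPKM in 1 group and are neither predicted nor small RNA genes, the 10 largest absolute differences (8 of them small RNA genes, so the 10 largest of other genes were added after their values were seen), up to 4 called members of each list (or those with the largest values), runs of 3 or more neighbours, *Scarb1*, *Xist*, Y-linked genes and families called in both directions. Other list members, Hox and R-spondin genes, *Rnf150*, *Snord88c* and neighbour pairs were named after their values were seen. The comparison and the gene lists were chosen with earlier results of these data known. Promoters are the 250 bases before the RefSeq start (GRCm38.p6). A few genes that the naming rule picks are not reported here.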

Additional observations from a re-analysis of the deposited data

How the results depend on the processing

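No paired analysis was possible because each group is 1 pooled value, and for the same reason leaving out single replicates was not run. The counts, 124 genes called higher and 126 lower, became 74 and 57 with a pseudocount of 1 FPKM, which shrinks low genes, 34 and 30 among genes averaging 5 FPKM or more, 211 and 283 at the smaller of 2 other folds tried, 59 and 28 at 2-fold, and 258 and 246 with no interval asked for. An alternative chosen after seeing the data, with no interval but without genes at 0 in 1 group, gave 193 and 192. Where the bounds of the groups had to be apart, 85 genes were higher and 82 lower. A pseudocount of 0.01, a minimum mean of 1 FPKM, no minimum, centring on the median and scaling to the same FPKM sum without erythroid genes kept both counts within 1.5 times. Of the 40 genes with the largest log2 fold changes, none changed direction under the 4 settings tried for them, but a pseudocount of 1 FPKM moved 32 of them by more than their standard error. Under it *Apoc2* went from 4.38 to 2.85, *Apoa4* from 3.58 to 1.79, *Slc2a2* from 3.43 to 1.43 and *Nhlh2* from -1.48 to -0.72, and the medians of the yolk sac lists fell to 1.65 for secreted proteins and 0.84 for receptors and transporters. Centring changed the sign of 6 of 57 list medians, all within 0.02 of 0. Limiting the lists to a mean of at least 5 FPKM changed the sign of 4 of 55, those of the myotome, midbrain and hindbrain, Wnt and immediate early lists. It moved 7 medians by more than the median standard error of their members, among them the proneural factors from -0.76 to -0.40 with 2 genes left, the yolk sac receptors and transporters from 1.22 to 0.47 with 4 left, the limb bud from -0.30 to -0.07 with 10 left and the roof plate from -0.27 to -0.03 with 7 left. Low expression limits most calls, since genes between 0.5 and 1 FPKM had a median standard error of 0.35 against 0.16 at 100 FPKM or more.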

Other observations

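Of the called genes, 60 higher and 62 lower ones with an ordinary name belonged to none of the gene lists. The groups below were read from them after their values were seen. Several genes called higher belong to the Nodal pathway or to early streak stages, the coreceptor genes *Cfc1* (0.769 FPKM in KO-NTD against 0.264 in KO-N embryos, log2 fold change 1.26) and *Tdgf1* (1.61 against 0.961, 0.69), the antagonist gene *Cer1* (0.82), the target *Mixl1* (0.934 against 0.356, 1.18) and *Foxh1* (0.77). All but *Foxh1* were below 2 FPKM in both groups. Genes of absorptive or secretory epithelia were also among them, the lysosomal protease gene *Ctsh* (4.96 against 1.55 FPKM, 1.62), the peptidase gene *Dpp4* (1.42), the zinc transporter gene *Slc39a4* (1.44), the amino acid transporter gene *Slc7a8* (1.44) and the cholesterol esterification gene *Soat2* (1.10). The carbonic anhydrase genes *Car4* (65.5 against 33.7 FPKM, 0.96) and *Car7* (3.34 against 0.853, 1.85) and the mitochondrial threonine dehydrogenase gene *Tdh* (2.89 against 0.674, 1.95) rose too. Among X-linked genes *Rhox5* (5.24 against 2.24, 1.19) and *Nxf7* (3.87 against 1.13, 1.69) did so.

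Among the genes called lower outside the lists, many are known from neurons. The nicotinic receptor genes *Chrna3* (0.355 against 0.862 FPKM, -1.08) and *Chrna4* (1.56 against 2.82, -0.82), the neuropeptide gene *Sst* (0.991 against 2.02, -0.96), the splicing factor gene *Srrm4* (-0.80), the kinase gene *Dclk1* (-0.69) and the transcription factor genes *Prdm8* (0.633 against 1.64, -1.25), *Prdm12* (0.524 against 1.36, -1.23) and *Prdm13* (-0.74) were lower. *Zic4* (-0.98), *Vax1* (-0.90), a gene of the ventral forebrain and optic stalk, and *Nr2e1* (1.67 against 2.86, -0.75), a gene of forebrain progenitors, were lower as well. Outside the nervous system *Cyp11a1*, which starts steroid synthesis (0.568 against 1.12, -0.86), *Pklr*, the pyruvate kinase of red cells and liver (-0.65), and *Hpgd*, which inactivates prostaglandins (-0.92), were called lower, all at or below 1.12 FPKM in both groups.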
